A study of Bos taurus with 33 samples.

Results

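The mRNAs of 10 factors of maternal mRNA storage and decay were followed in bovine oocytes and cumulus cells (CC): YBX2, PATL2, EIF4E1B, DAZL, CPEB1 and LSM14B on the storage and translation side, and BTG4, CNOT6L, CNOT7 and ZFP36L2 on the decay side. They were chosen by symbol among the 17543 genes of the oocyte and CC tables, joined by Ensembl identifier. Of these 10 genes, 8 had a row in both tables, and CPEB1 and LSM14B matched no row in either, so no value is given for them. A filter on low values (at least 5 CPM, counts per 1000000 reads on genes, in at least 4 oocyte or 5 CC pools) retained 7 of the 10 for testing in oocytes, all but ZFP36L2 of those with a row, and 3 in CC, namely CNOT6L, CNOT7 and ZFP36L2.

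Each library was made from total RNA of a pool of 4 oocytes or of the CC of 4 cumulus-oocyte complexes, the CC being the somatic cells that surround the oocyte. All cows received GnRH on day -9 and PGF2α on day -2. Cows that did not show estrus received a second GnRH injection (GnRH2) on day 0 to trigger the gonadotropin surge and formed the small (largest follicle up to 11.7 mm; 6 oocyte and 6 CC pools) and large (12.7 mm or more; 6 and 6 pools) classifications. Cows that showed estrus received no GnRH2, triggered the surge on their own and formed the spontaneous classification (11.7 to 14 mm; 4 oocyte and 5 CC pools), so that this group differs from the others in the source of the surge as well as in follicle diameter. Collection followed GnRH2 or estrus by about 23 h according to the treatment protocol and by about 20 h according to the stage label. The study describes the CC pools as the cells of the same 4 oocytes that formed the oocyte pools, so the 2 tissues are not from separate animals. The labels do not state whether pools within a tissue were free of shared animals or collection days, so p-values measure the spread between these pools.

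A growing oocyte transcribes and stores mRNA, then matures and begins development with transcription silenced, so that its protein supply depends on which stored mRNAs are masked, translated or removed. YBX2, PATL2, EIF4E1B, DAZL, CPEB1 and LSM14B encode proteins that bind stored mRNA or its cap and hold back or allow translation. Removal begins with shortening of the poly(A) tail by the CCR4-NOT complex, in which CNOT6L and CNOT7 are catalytic subunits, BTG4 is an adaptor that is active in maturing oocytes and early embryos, and ZFP36L2 is a protein that binds AU-rich elements and recruits the complex. The libraries measured the abundance of these mRNAs, not the length of their poly(A) tails or their proteins.

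Reads on genes numbered 7664375 to 17934916 per oocyte pool and 1911600 to 5772431 per CC pool, so 3 reads, the limit that a count of 0 allows, were worth 0.167 to 0.391 CPM in an oocyte library and 0.52 to 1.57 CPM in a CC library. Limits and counting intervals here cover counting error alone, since reads copied from amplified cDNA do not each stand for a molecule. All 12 oocyte markers had reads in the oocyte pools and together had 9688 to 13488 CPM there against 1.57 to 13.7 CPM in CC, where 6 of the 12 had a row, among them GDF9, ZP2 and NOBOX. The 14 cumulus and granulosa markers summed to 5386 to 13951 CPM in CC and to 274 to 1071 CPM in oocytes. In the oocyte pools of each classification 13 of the 14 had reads. The one without was FSHR in small and FOXL2 in large and in spontaneous, and FOXL2 was low in CC too (mean 0.476 CPM). The largest in oocytes were HAS2 (mean 193 CPM against 75.5 CPM in CC) and PTGS2 (163 against 1891 CPM). CD44 also had a higher mean in oocytes (18.9 against 6.06 CPM). What part of the oocyte sum came from cumulus cells was not tested. Theca markers summed to 109 to 1187 CPM in CC, mainly INSL3 (mean 410 CPM, against 7.39 for LHCGR and 0.183 for CYP17A1). White blood cell markers summed to 29.7 to 218 CPM in CC and endothelium markers to 7.38 to 68.9 CPM. In oocytes the white blood cell sum was 132 to 262 CPM, mainly CSF1R (mean 176 CPM). What part of the CC values came from other cells was not tested. Mitochondrially encoded genes took 11.6 to 39.8% of the reads of CC pools and 0.786 to 4.41% of those of oocyte pools. The oocyte and CC tables were scaled separately, so values of the 2 tissues are set side by side without a test. In bulk pools of this kind fewer cells of a type and less RNA per cell cannot be told apart.

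The storage and translation factors had reads mainly in oocytes. YBX2 (ENSBTAG00000009126), a germ-cell Y-box protein that packages mRNA, had 334 ± 84.9 CPM in oocytes (SD, n = 16) and 4 reads in all 17 CC pools together. EIF4E1B (ENSBTAG00000003103), an oocyte form of the cap-binding protein EIF4E, had 63.3 ± 27.1 CPM in oocytes, and its only CC reads were 2 in small replicate 2. PATL2 (ENSBTAG00000001558), an oocyte RNA-binding repressor, had 112 ± 46.7 CPM in oocytes and 0.349 ± 0.602 CPM in CC (SD, n = 17), where 7 pools held its 25 reads. DAZL (ENSBTAG00000000502), a germ-cell protein that promotes translation of stored mRNAs, had 172 ± 58.2 CPM in oocytes and 0.87 ± 1.02 CPM in CC, from 69 reads in 11 pools.

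BTG4 (ENSBTAG00000034346) was the member of the decay side with the same pattern, with 3973 ± 497 CPM in oocytes (SD, n = 16; 828202 reads) and 2 reads in CC, both in spontaneous replicate 5. Pooled over libraries, the ratio of oocyte to CC CPM was 143768 for BTG4, with a 95% counting interval of 39799 to 1187140, and 2327 for EIF4E1B, with 644 to 19218. CNOT6L (ENSBTAG00000004353) was present in both tissues, with 261 ± 45.8 CPM in oocytes and 22.2 ± 6.14 CPM in CC, 11.7-fold higher in oocytes. CNOT7 (ENSBTAG00000018036) had 649.9 ± 102 CPM in oocytes and 386 ± 84.9 CPM in CC, and its pools overlapped, since the highest CC pool had 561 CPM and the lowest oocyte pool 521 CPM. ZFP36L2 (ENSBTAG00000003553) was the member with a higher mean CPM in CC, at 4.48 ± 1.72 CPM against 1.65 ± 1.41 CPM in oocytes, and its pools overlapped too.

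In total 6 of the 8 members with a row (YBX2, PATL2, EIF4E1B, DAZL, BTG4 and CNOT6L) were higher in every oocyte pool than in every CC pool, whereas 17.5% of the 14980 genes with a row in both tables were. No member was higher in every CC pool than in every oocyte pool, which was the case for 10.6% of those genes. The 14980 genes include those under the filter on low values. The members were chosen with earlier results of these data known. The shares are therefore set side by side as a description, not as a test of enrichment. Leaving mitochondrially encoded genes out of the CPM lowered the ratio of CNOT7 from 1.68 to 1.38 and that of CNOT6L from 11.7 to 9.58. The range of each member and of its paralogs in both tissues is drawn in the plot of tissue levels.

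**Figure D1:**
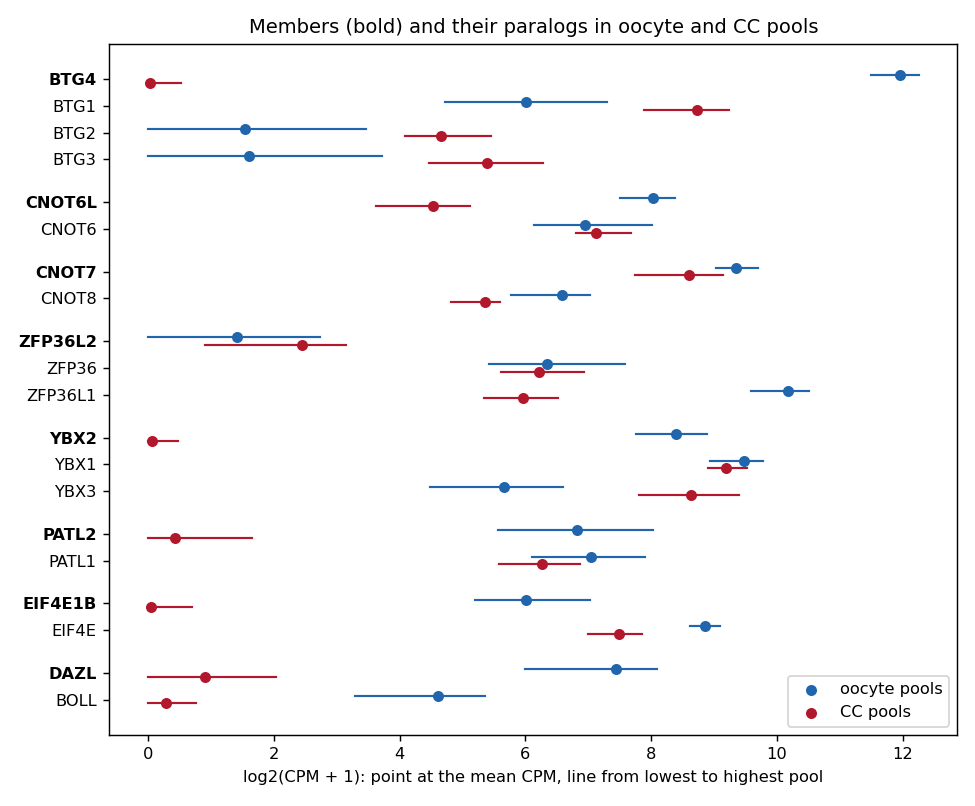
Level of the 8 members with a row (bold) and of their paralogs on a log2(CPM + 1) axis, with a point at the mean CPM and a line from the lowest to the highest of 16 oocyte pools (blue) or 17 CC pools (red). BTG4, YBX2, PATL2, EIF4E1B and DAZL lay near 0 in CC, whereas most of their paralogs had reads in both tissues.

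Paralogs of the members varied in their distribution between the tissues, some like the member and some not. The adaptors BTG1, BTG2 and BTG3 were higher in every CC pool than in every oocyte pool, by 6.7-fold (423 against 63.1 CPM), 12.8-fold (24.3 against 1.9 CPM) and 20.2-fold (41 against 2.03 CPM), the reverse of BTG4. YBX3 was 8-fold higher in CC (395 against 49.4 CPM), while YBX1 had 586 CPM in CC and 711 CPM in oocytes with overlapping pools. CNOT6, the paralog of CNOT6L, had 138 CPM in CC and 123 CPM in oocytes, again with overlap, and CNOT8, the paralog of CNOT7, had 40.2 and 94.6 CPM without overlap.

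In the family of ZFP36L2, ZFP36L1 had 1151 CPM in oocytes and 61.6 CPM in CC, 18.7-fold higher in oocytes without overlap, and ZFP36 had 80.3 and 73.2 CPM with overlap. The cap-binding protein EIF4E had 464 CPM in oocytes and 178 CPM in CC without overlap, the same direction as EIF4E1B. PATL1 had 130.3 and 75.7 CPM with overlap. The DAZ-family gene BOLL followed DAZL, with 23.4 CPM in oocytes and 15 reads in all CC pools. Among relatives of CPEB1, the cytoplasmic polyadenylation element binding proteins CPEB3 (46.2 against 4.27 CPM) and CPEB4 (515 against 95.5 CPM) were higher in every oocyte pool than in every CC pool. LSM14A, the paralog of LSM14B and an RNA granule protein, had 169.7 CPM in oocytes and 166 CPM in CC.

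A list of 76 other storage and decay genes was described in the same way, and 72 of them had a row in both tables. Of these, 25 were higher in every oocyte pool, 11 in every CC pool and 36 overlapped, beside 17.5 and 10.6% of all genes in the first 2 classes. Those shares include genes under the filter, and the list was chosen with earlier results known, so this too is a description. Of 17 genes of storage and translational repression with a row, 2 were higher in every CC pool, YBX3 among them, and 3 overlapped. The other 12 were among the 25 genes higher in every oocyte pool. They included the RNA-binding proteins IGF2BP3 (1083 CPM in oocytes against 1.26 CPM in CC) and ELAVL2 (182 against 0.171 CPM), the maternal-effect genes ZAR1L (329 against 3.96 CPM) and ZAR1 (83.4 CPM against 3 reads in all CC pools), and EIF4ENIF1, the transporter and repressor that binds EIF4E (476 against 28.7 CPM). These examples were chosen after their values were seen.

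Among 14 CCR4-NOT subunits and BTG/TOB adaptors 5 were higher in every oocyte pool (CNOT3, CNOT4, CNOT8, CNOT10 and CNOT11) and 3 in every CC pool, the BTG genes above. Of 16 decapping and 5′ decay genes 12 overlapped, with DCP1A higher in oocytes and DCP1B, DDX6 and LSM6 higher in CC. Among the 9 RNA-binding decay factors 3 were higher in every oocyte pool (ZFP36L1, YTHDF1 and KHSRP), 1 in every CC pool, and 5 overlapped. For poly(A) tail binding and extension the oocyte-high genes were PABPN1L, PABPC1L and TENT2 and the CC-high gene PABPC1, with 7 overlapping. Other deadenylases and uridylyltransferases gave PAN3 in oocytes, TUT4 in CC and 3 that overlapped. The plot of tissue means shows the members against these lists.

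**Figure D2:**
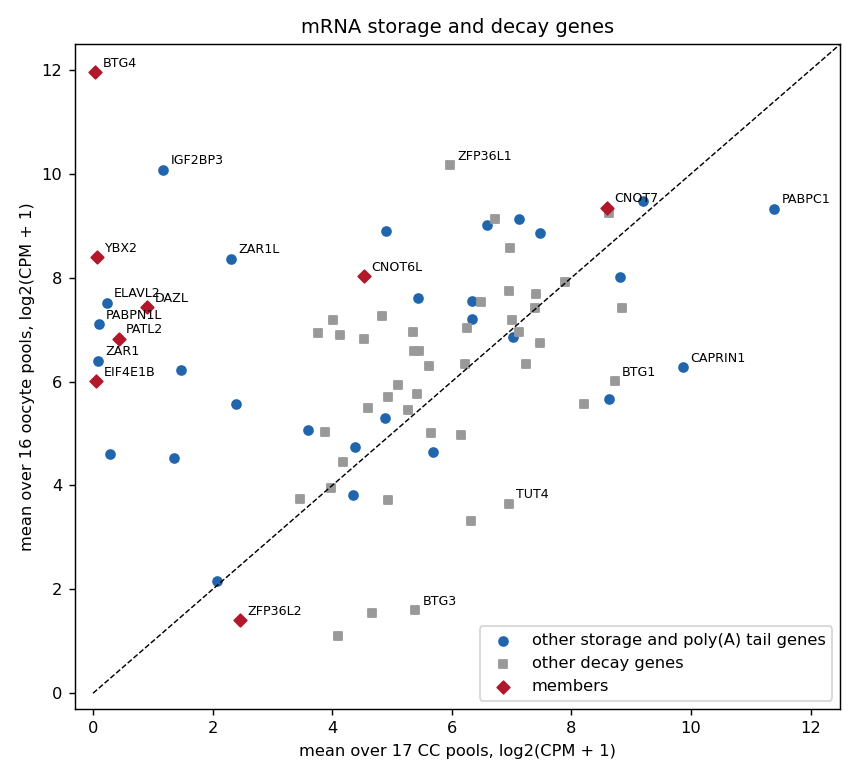
Mean level in 16 oocyte pools (vertical) against mean level in 17 CC pools (horizontal), both as log2(CPM + 1), for the members (red diamonds), the other storage and poly(A) tail genes (blue circles) and the other decay genes (grey squares). Points above the dashed line of equal CPM were higher in oocytes, and 5 of 8 members lay at the left edge with under 1 CPM in CC.

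The first comparison between classifications asked whether the oocyte supply of these mRNAs differed with follicle size and with the way the surge was triggered. No member passed the nominal threshold (limma p of 0.01 or less) in any of the 3 oocyte comparisons, 0 of 7 each, beside 0.655% of all 10076 transcripts tested from small to large, 0.774% for small against spontaneous and 0.943% for large against spontaneous. The members with an unadjusted p under 0.05 numbered 0, 0 and 1 in these comparisons, against 4.11, 4.51 and 4.87% of all transcripts, and limma's Benjamini-Hochberg adjusted p was under 0.05 for none of the 10076. With edgeR and DESeq2 on the recovered reads the member count was again 0 in all 3. Groups of 7 members overlapped in every comparison, where 0.258, 0.903 and 0.913% of transcripts did not overlap.

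**Figure D3:**
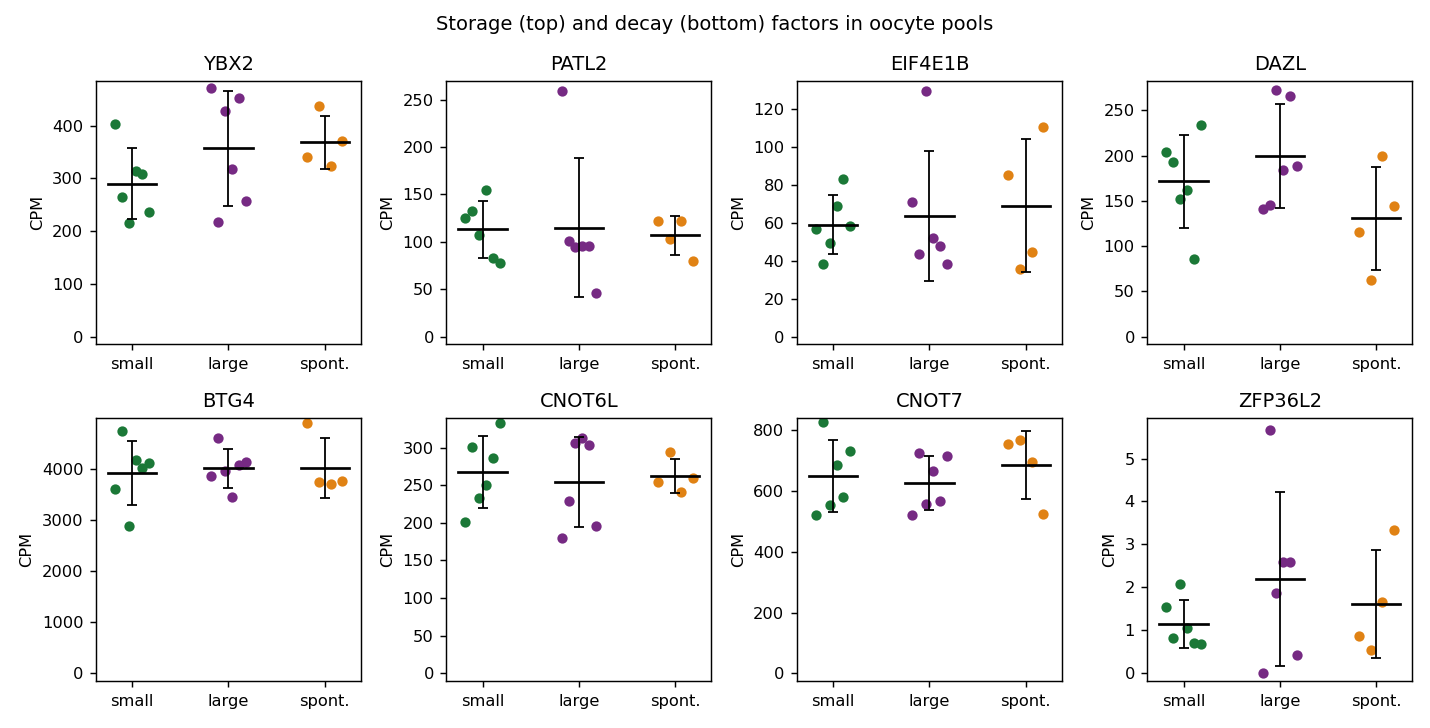
CPM of the 8 members with a row in every oocyte pool by classification, storage and translation factors above and decay factors below, with the mean (line) and SD (bar) of 6 small, 6 large and 4 spontaneous pools. The classifications overlapped for each member, and spontaneous pools of DAZL reached down to 62.9 CPM.

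DAZL differed most. Its lowest, median and highest CPM were 85.4, 178 and 234 in small oocyte pools and 141, 186 and 272 in large ones, and the spontaneous pools had 62.9, 116, 145 and 199.7 CPM. Of the 4 spontaneous pools 2 lay below every large pool, and 1 lay above the large median, so the groups overlapped. Its mean was 199 CPM in large and 131 CPM in spontaneous pools, a log2 fold change of -0.67 (95% interval -1.21 to -0.14, limma p = 0.0155, adjusted p = 0.968), which did not pass the threshold, and the exact two-sided permutation test gave p = 0.119. Leaving out large replicate 1, large replicate 2 or spontaneous replicate 3 took it past the threshold, with log2 fold changes of -0.76, -0.75 and -0.91. From small to spontaneous the log2 fold change was -0.44 (interval -1.03 to 0.15) and from small to large 0.23 (interval -0.21 to 0.68).

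YBX2 ran from 215 to 403 CPM in small pools (median 286) and from 216 to 471 CPM in large pools (median 372), and the spontaneous pools had 323, 341, 371 and 437 CPM. All 4 spontaneous pools were above the small median, but small replicate 1 at 403 CPM exceeded 3 of them. The log2 fold change from small to spontaneous was 0.36 (interval -0.02 to 0.75, limma p = 0.0615, adjusted p = 0.987, exact permutation p = 0.0857). From small to large it was 0.27 and from large to spontaneous 0.1, with intervals that included 0.

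PATL2 had 77.3 to 155 CPM in small pools (median 116), 46.3 to 259 CPM in large pools (median 95.2) and 79.4, 103, 122 and 122 CPM in spontaneous pools. The large value of 259 CPM was a single pool, replicate 1, since the next large pool had 101 CPM. EIF4E1B ranged from 38.1 to 83 CPM in small (median 57.4), from 38.3 to 129.7 CPM in large (median 49.7) and over 35.8, 44.6, 85.4 and 110.3 CPM in spontaneous pools, which split into a lower and a higher pair. For both mRNAs the 3 log2 fold changes lay between -0.13 and 0.12 and the intervals reached no further than -0.70 and 0.83.

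BTG4 was the steadiest member. Small pools had 2876 to 4724 CPM (median 4056), large pools 3435 to 4587 CPM (median 4013), and spontaneous pools 3690, 3735, 3753 and 4891 CPM. The 3 group means were 3914, 4003 and 4017 CPM, and the 95% intervals of the 3 log2 fold changes together spanned -0.20 to 0.29. A difference of more than 1.22-fold between classifications therefore lay outside each interval.

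CNOT6L had 202 to 332 CPM in small pools (median 268), 180.2 to 312 CPM in large pools (median 266) and 240.5, 254, 259.7 and 294 CPM in spontaneous pools, with log2 fold changes of -0.09, -0.01 and 0.08 and intervals within -0.44 and 0.46. CNOT7 had 521 to 827 CPM in small pools (median 634), 521 to 727 CPM in large pools (median 617) and 524, 694, 754 and 768 CPM in spontaneous pools, with log2 fold changes of -0.05, 0.08 and 0.12 and intervals within -0.32 and 0.42. The groups of both subunits overlapped, with the spontaneous pools of CNOT6L inside the range of the small pools. ZFP36L2 was under the filter in oocytes, with 0.689 to 2.09 CPM in small pools, 0 to 5.67 CPM in large pools and 0.54 to 3.35 CPM in spontaneous pools.

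The median log2 fold change of the 7 members was 0.02, 0.04 and 0.08 from small to large, small to spontaneous and large to spontaneous, beside 0.05, 0.05 and 0.01 over all transcripts tested. The 95% interval lay within a 2-fold change for 7, 6 and 6 of the 7 members, DAZL being the exception, compared with 4634, 3682 and 4076 of the 10076 transcripts. Since the 3 comparisons share pools, they are not independent of each other. The plot of fold changes gives all intervals.

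**Figure D4:**
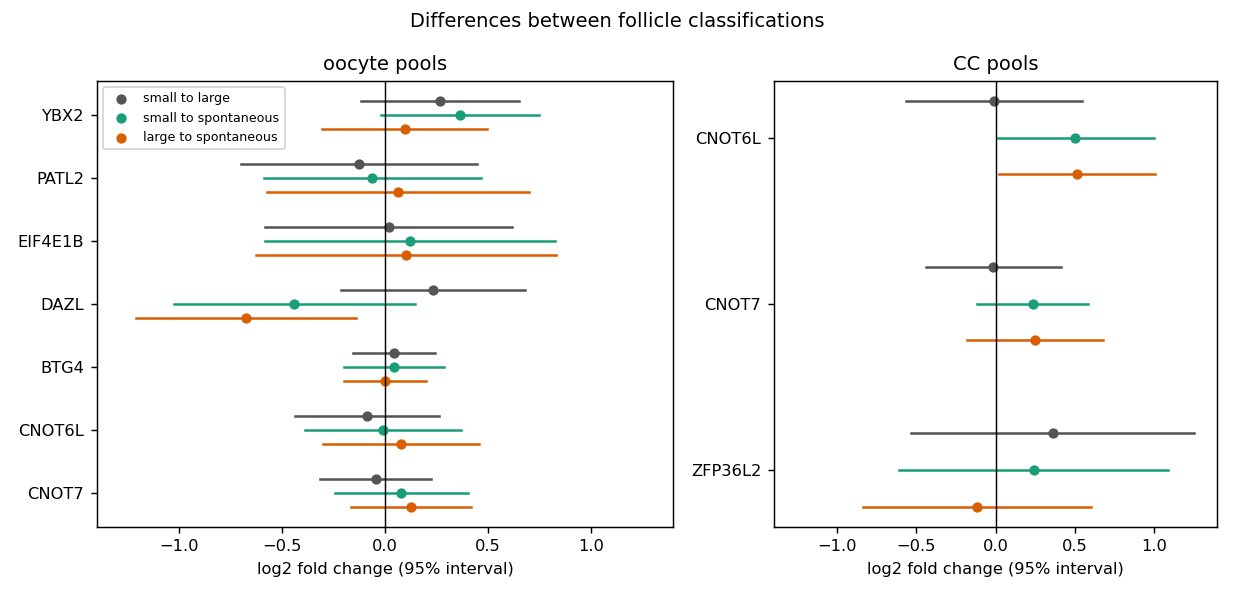
Log2 fold change (second classification minus first, on log2(CPM + 1)) with its 95% limma interval for the 7 members tested in oocyte pools and the 3 tested in CC pools. All oocyte intervals except that of DAZL from large to spontaneous include 0, and in CC the 2 intervals of CNOT6L that involve spontaneous pools lie just above 0.

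The spread between pools of a classification varied among the members. On log2(CPM + 1) the pooled within-classification SD was 0.20 for BTG4, 0.24 for CNOT7, 0.28 for CNOT6L and 0.37 for YBX2, and 0.52, 0.56 and 0.58 for DAZL, PATL2 and EIF4E1B, where the median of all transcripts tested was 0.66. Among the transcripts nearest in mean level (253 for BTG4, 450 for CNOT7 and 500 for the other members), BTG4 was at percentile 47.4 and CNOT6L at percentile 47.8 of this SD, near the middle. The other members varied more between pools than most transcripts of their level, with CNOT7 at percentile 66.4, EIF4E1B at 74, PATL2 at 91.2, YBX2 at 92.0 and DAZL at 97.0.

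The members were then compared across the 16 oocyte pools, which share library preparation and differ in depth. Of 21 pairs of the 7 members 12 had a positive Pearson's r of log2(CPM + 1), with a median of 0.0088 and a range of -0.54 to 0.55, and no pair had a Benjamini-Hochberg adjusted permutation p under 0.05 for Pearson's r or Spearman's rho. The highest value was for BTG4 and CNOT7 (r = 0.55, permutation p = 0.0223, adjusted 0.322; rho = 0.59, p = 0.0172, adjusted 0.362; r = 0.48 without the 2 pools farthest from the BTG4 median; r = 0.57 for deviations from the classification means). The lowest was for CNOT7 and EIF4E1B (r = -0.54, permutation p = 0.0307, adjusted 0.322; rho = -0.52, p = 0.0427, adjusted 0.449; r = -0.59 without 2 pools; r = -0.58 for deviations). Beside this, r with log10 reads on genes was 0.54 for BTG4, 0.18 for CNOT7 and 0.30 for EIF4E1B. The r with the summed cumulus and granulosa markers ran from -0.63 for PATL2 to 0.29 for CNOT7. In oocytes the largest parts of that sum were HAS2, with a higher mean there than in CC, and PTGS2. The sum may therefore not measure cumulus RNA alone. The summed mitochondrially encoded genes gave r of -0.62 for YBX2 and -0.37 to -0.04 for the other members, and their median share was 1.56% in small, 1.16% in large and 0.92% in spontaneous oocyte pools, where YBX2 had 289.9, 357 and 368 CPM. With CPM recomputed without those genes the log2 fold change of YBX2 from small to spontaneous was 0.35. The part of depth and of these markers in the pair values was not tested.

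Of the 10069 other retained oocyte transcripts, those most like the mean z-score of the 7 members over the 16 pools were ELOVL5 (r = 0.76), CXCR4 (r = 0.72), GALNT13 (r = 0.70), RSPRY1 (r = 0.69) and KIN (r = 0.68). These are the highest of many values and are given as a description. The pairs of members had a median r of 0.0088, so their mean z-score is not a profile that the members share. CXCR4 also followed depth, with r = 0.63 to log10 reads, against 0.08 for ELOVL5.

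In CC the same comparisons asked about the somatic cells of the same follicles. Of the 3 members tested 0 passed the threshold in each comparison, beside 0.813% of 9712 transcripts from small to large, 2.38% for small against spontaneous and 1.66% for large against spontaneous. An unadjusted p under 0.05 was found for 0, 1 and 1 member, against 4, 8.55 and 7.07% of transcripts, and an adjusted p under 0.05 for no member, against 0, 0.0309 and 0.0103%. DESeq2 and edgeR on the recovered reads also gave 0 in each. No member separated the classifications, where 0.247, 1.16 and 0.865% of transcripts did. Over all transcripts the median log2 fold change was 0.05 for small to large, 0.16 for small to spontaneous and 0.11 for large to spontaneous, against which the CC values are read.

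CNOT6L had 14.5 to 28.5 CPM in small CC pools (median 18.3), 11.3 to 22.9 CPM in large ones (median 21.5), and 21.6, 24.7, 28, 32.6 and 33.7 CPM in the spontaneous pools. In 4 of the 5 spontaneous pools CNOT6L lay above every large pool, and small replicates 1 and 2 reached into the spontaneous range. The log2 fold change was 0.50 from small to spontaneous (interval 0.01 to 0.998, limma p = 0.047, adjusted p = 0.580, exact permutation p = 0.0411) and 0.51 for large to spontaneous pools (interval 0.02 to 1.003, limma p = 0.0428, adjusted p = 0.696, exact permutation p = 0.0108), neither past the threshold. With median-of-ratios scaling the values were 0.35 and 0.41, also not past it. From small to large it was -0.01 (interval -0.56 to 0.55). The mitochondrial share had a median of 21.8% in small, 19.3% in large and 14.2% in spontaneous CC pools, and its part in the difference was not tested beyond the values without those genes, 0.36 and 0.46.

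CNOT7 had 289 to 459 CPM in small CC pools (median 363), 214 to 561 CPM in large ones (median 372) and 351, 384, 443, 445 and 513 CPM in the spontaneous pools, which all lay within the range of the large pools. Its log2 fold changes were -0.01, 0.23 and 0.25, with intervals that included 0. ZFP36L2 was low in every classification, with means of 4, 5.05 and 4.38 CPM from 81, 124 and 111 reads, and it met the filter through exactly 5 pools (1 small, 3 large and 1 spontaneous). The widest of its intervals ran from -0.53 to 1.25.

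Among the members under the filter in CC, DAZL and PATL2 had more than 3 reads in a classification. For DAZL the small CC pools had reads in 2 of 6 pools (6 reads in all), the large pools in 4 of 6 (13 reads) and the spontaneous pools in 5 of 5 (50 reads), with 0.661, 0.836, 2, 2.93 and 3.09 CPM in the spontaneous pools and at most 1.54 and 1.53 CPM in small and large pools. Pooled over libraries this was 0.271 CPM in small (exact 95% Poisson interval 0.0994 to 0.589), 0.539 in large (0.287 to 0.921) and 1.96 CPM in spontaneous pools (1.46 to 2.59), intervals that cover counting error only. The ranges overlapped, because 2 of the spontaneous pools lay below the highest small and large pools. Median depth was 3276812, 4121436 and 5126690 reads on genes in small, large and spontaneous CC pools. The number of pools with DAZL reads therefore depends on depth as well.

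A fit without the filter gave a log2 fold change of DAZL in CC of 1.15 from small to spontaneous (limma p = 0.00296, adjusted p = 0.404, exact permutation p = 0.0216) and 0.87 for large to spontaneous pools (limma p = 0.0189, adjusted p = 0.706, exact permutation p = 0.039), where 1.9% and 1.34% of all transcripts passed the threshold in these fits. The first was past the threshold with each of the 11 pools left out in turn, at 1.003 to 1.36, and under both other scalings, at 1.08 and 1.24, but not with the quasi-likelihood test of edgeR (log2 fold change 2.42). The second passed it without large replicate 3 (1.02) or spontaneous replicate 5 (1.05). These checks were chosen after the values were seen. Beside this, the summed oocyte markers had medians of 6.58, 3.96 and 4.36 CPM in small, large and spontaneous CC pools. Of the 12 oocyte markers 6 had a row in CC, where OOEP had the highest mean (2.65 CPM), followed by GDF9 (1.12 CPM). The sum therefore rests largely on OOEP. The part of oocyte RNA in the CC values of DAZL was not tested. PATL2 had 17, 1 and 7 reads in small, large and spontaneous CC pools, pooled levels of 0.767 CPM (exact 95% Poisson interval 0.447 to 1.23), 0.0414 CPM (0.00105 to 0.231) and 0.275 CPM (0.111 to 0.566). Its unfiltered log2 fold change from small to large was -0.58 (limma p = 0.0458, adjusted p = 0.969, exact permutation p = 0.182), not past the threshold, and 3 of 6 small pools held its reads. BTG4, YBX2 and EIF4E1B had at most 3 reads per classification in CC, so no fold is given for them.

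**Figure D5:**
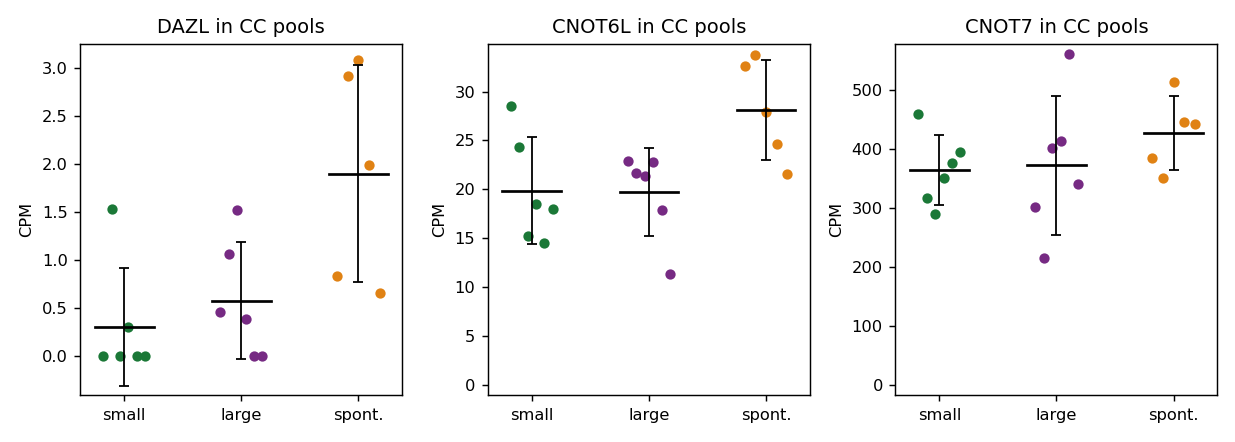
CPM of DAZL, CNOT6L and CNOT7 in every CC pool by classification, with the mean (line) and SD (bar) of 6 small, 6 large and 5 spontaneous pools. DAZL reads were found in all 5 spontaneous pools and in 2 small and 4 large pools, while the classifications of CNOT6L and CNOT7 overlapped. Spontaneous pools had the highest median depth (5126690 reads on genes, against 3276812 in small and 4121436 in large pools).

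The other storage and decay genes were tested in the same fits. From small to large oocytes 1 of 69 passed the threshold, beside 0.655% of all transcripts: EDC3, an enhancer of decapping, rose from 4.77 to 22.1 CPM (log2 fold change 2.19, limma p = 0.000981, adjusted p = 0.997, exact permutation p = 0.00649). The 2 groups of EDC3 overlapped. From small to spontaneous oocytes 1 of 69 passed, beside 0.774%. LSM2, a subunit of the LSm rings that bind mRNA and U6 RNA, rose from 12.7 to 41.7 CPM (log2 fold change 1.78, limma p = 0.00226, adjusted p = 0.891, exact permutation p = 0.00476) with no overlap between the groups, but passed no longer without spontaneous replicate 3 or 4. The groups did not overlap for 2 of the 69 genes, beside 0.903% of all transcripts.

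From large to spontaneous oocytes 2 of 69 passed, beside 0.943%. LSM2 rose as well (log2 fold change 1.62, limma p = 0.00332, adjusted p = 0.925, exact permutation p = 0.019), and DCP1A, a decapping activator, fell from 434 to 318 CPM (log2 fold change -0.46, limma p = 0.0097, adjusted p = 0.968, exact permutation p = 0.0429). For both genes the large and spontaneous pools overlapped. They did not for 1 of the 69 genes, beside 0.913% of all transcripts. Without spontaneous replicate 3 or 4 LSM2 no longer passed, and DCP1A no longer passed in 7 of 10 fits with 1 pool left out (large replicates 1, 2, 4, 5 and 6 and spontaneous replicates 1 and 2). In CC 0 of 64 passed in each comparison, beside 0.813, 2.38 and 1.66% of all transcripts, and 1, 5 and 4 had an unadjusted p under 0.05, beside 4, 8.55 and 7.07%. Of the 69 genes in oocytes 4, 5 and 6 had an unadjusted p under 0.05 in the 3 comparisons, beside 4.11, 4.51 and 4.87%. The median log2 fold change of the 69 genes in oocytes was -0.000567, -0.05 and 0.000735 beside 0.05, 0.05 and 0.01 over all transcripts, and that of the 64 genes in CC 0.06, 0.10 and 0.03 beside 0.05, 0.16 and 0.11.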

How the data were processed

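RNA of 16 oocyte pools and 17 CC pools was amplified with the Ovation RNA-Seq System V2 and sequenced by the authors, who used Hisat2 with the UMD3.1 genome, assigned reads to Ensembl genes by featureCounts and deposited CPM in a table per tissue. The columns were matched to pools by name, with 0 left unmatched. No genome of that build was used, so no coordinates or sequences are given. Whole reads were recovered from 100% of the CPM values (tolerance 0.05 read). The fewest reads on genes were 1911600, in a CC pool. No pair of libraries of a group agreed within sampling noise.

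Those transcripts reaching 5 CPM in 4 or more oocyte pools, or in 5 or more CC pools, were tested between 2 classifications with limma 3.58.1 on log2(CPM + 1), fitting a mean-variance trend without covariates, two-sided, which understates the change of low transcripts. The threshold was a nominal p of 0.01. In oocyte comparisons with small pools it also had to be met without small replicate 3. Exact permutation tests compared mean CPM, and correlations used 100000 permutations. The study's count tests, edgeR 4.0.16 and DESeq2 1.42.0, were run on recovered reads as alternatives, with the others in the closing section. Fits were tested on simulated data (R 4.3.3, Python 3.11.15, matplotlib 3.10.9).

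Named were the 10 members, their paralogs, up to 5 pathway genes past the threshold per comparison and the 5 transcripts most like the members. Members and lists were chosen with earlier results of these data known. The values of 1 listed gene are not reported here.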

Additional observations from a re-analysis of the deposited data

Results flagged for a closer look

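Within-group values of the members were examined in the 38 combinations of member and group in which some pool had more than 3 reads, and in 4 of them 1 pool stood apart from the rest by Dixon's criterion, where chance gives about 1 in 20. BTG4 had 4891 CPM in spontaneous oocyte replicate 1, and the next pool had 3753 CPM. PATL2 had 259 CPM in large oocyte replicate 1, where the next pool had 101 CPM. EIF4E1B had 129.7 CPM in large oocyte replicate 3, against 71 CPM in the next. DAZL had 1.54 CPM in small CC replicate 2, which rested on 5 reads, against 0.304 CPM in the next pool. Another rule looked for members that moved in opposite directions in oocytes and CC without overlap of the groups. It could flag none, since the classifications of every tested member overlapped in each tissue. DAZL, under the filter in CC, was not covered by it. Its log2 fold changes in oocytes and in unfiltered CC were -0.67 and 0.87 from large to spontaneous, -0.44 and 1.15 from small to spontaneous, and 0.23 and 0.28 from small to large. These groups overlapped, and the CC values rest on few reads.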

How the results depend on the processing

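Of 586 alternative values of member fold changes 526 kept direction and side of the threshold, 57 turned sign and 3, all of DAZL between large and spontaneous oocytes, passed the threshold. The causes were not tested. Turned by median-of-ratios scaling were EIF4E1B from small to large oocytes (-0.0163) and BTG4 from small to spontaneous oocytes (-0.000427). BTG4 also turned with edgeR from small to spontaneous (-0.0069) and with DESeq2 in that comparison (-0.0116) and from small to large (-0.0037). PATL2 from large to spontaneous oocytes was -0.12 with edgeR and -0.11 with DESeq2, and ZFP36L2 from small to spontaneous CC was -0.0011 and -0.0037.

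Pools with the same replicate number did not deviate together (correlations of deviations -0.19 to 0.22), and the numbers are not known to mark shared animals. With the replicate block CNOT6L from small to spontaneous oocytes was 0.10, from large to spontaneous oocytes BTG4 was 0.0196, PATL2 -0.23 and EIF4E1B -0.11, and ZFP36L2 from small to spontaneous CC was -0.016. The count of other storage and decay genes past the threshold with the replicate block was 2 from small to large oocytes and 0 from large to spontaneous oocytes, against 1 and 2.

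That count was 2 with DESeq2 from small to large oocytes, 3 with all 3 classifications fitted together for small against spontaneous, and 1 for large against spontaneous with edgeR, without a filter, with a filter at a mean of 1 CPM or with 0.1 as pseudocount. In CC it was 1 with DESeq2 from small to large and 1 without a filter from large to spontaneous, against 0. Without a filter the member count from small to spontaneous CC was 1, DAZL.

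With each pool left out in turn the member count from large to spontaneous oocytes was 0 to 1 (1 without large replicate 1, large replicate 2 or spontaneous replicate 3). The count of other genes was 1 to 2 from small to large oocytes (2 without small replicate 2, 3 or 5 or large replicate 3 or 6), 0 to 2 from small to spontaneous (2 without small replicate 1, 2 or 6 or spontaneous replicate 1, 0 without spontaneous replicate 3 or 4), 1 to 2 from large to spontaneous (2 without large replicate 3 or 6), 0 to 1 from small to spontaneous CC (1 without spontaneous replicate 3) and 0 to 2 from large to spontaneous CC (2 without large replicate 2, 1 without large replicate 4). Fold changes from small to large oocytes ranged from -0.11 to 0.0277 for CNOT7, -0.21 to 0.13 for EIF4E1B, -0.0418 to 0.10 for BTG4, -0.16 to 0.0048 for CNOT6L and -0.40 to 0.095 for PATL2. From small to spontaneous oocytes they were -0.0876 to 0.0558 for CNOT6L, -0.0545 to 0.10 for BTG4, -0.16 to 0.0716 for PATL2 and -0.15 to 0.38 for EIF4E1B, and from large to spontaneous oocytes -0.0156 to 0.14 for CNOT6L, -0.0983 to 0.0403 for BTG4, -0.036 to 0.19 for YBX2, -0.16 to 0.33 for PATL2 and -0.17 to 0.36 for EIF4E1B. In CC they were -0.0852 to 0.13 for CNOT6L and -0.14 to 0.13 for CNOT7 from small to large and -0.016 to 0.29 for ZFP36L2 from small to spontaneous. Leaving out any of the 5 CC pools in which ZFP36L2 met the filter removed it from the fit, which then gave no value for it.

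With 4 to 6 pools per group the intervals of DAZL, YBX2, PATL2 and EIF4E1B in oocytes do not exclude changes of 1.5-fold. In CC, BTG4, YBX2 and EIF4E1B were at or under the limit of 3 reads per classification, so differences between classifications were not detectable at this depth.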
